A study of Mus musculus with 6 samples.

Results

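Clustered protocadherins are cell surface proteins of neurons, encoded by 3 gene clusters named alpha, beta and gamma that lie side by side on mouse chromosome 18 (GRCm38, 36930184 to 37841873). The members examined here are the rows of the count table whose symbol is that of a Pcdha, Pcdhb, Pcdhga, Pcdhgb or Pcdhgc gene, in mouse style or in capitals. They number 59 of 43346 rows, with 15 in the alpha, 22 in the beta and 22 in the gamma cluster. The study compared brain RNA of 3 adult male C57BL/6 mice called Kdm6a deficient, bred from females with a loxP-flanked Kdm6a and males carrying Thy1-Cre, with that of 3 wild-type littermates of the same sex, strain and age. Thy1-Cre expresses the recombinase mainly in neurons, so other brain cells may keep an intact Kdm6a, an X-linked demethylase of lysine 27 on histone H3. Kdm6a itself had 22.3, 25.2 and 25.2 CPM (counts scaled to library size by TMM) in deficient mice 1, 2 and 3, against 34.5, 35.0 and 34.3 CPM in wild-type mice 1, 2 and 3. It averaged 24.2 ± 1.68 CPM in deficient mice, against 34.6 ± 0.370 CPM in wild-type mice (SD, n = 3 each), a log2 fold change of -0.51 (SE 0.07, adjusted p = 0.00780 by edgeR).

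A neuron uses few of these genes at a time. Each alpha and gamma gene has its own promoter and a long variable exon, which is spliced to constant exons that the whole cluster shares, and each beta gene is a single-exon unit. Promoter choice is largely random from cell to cell and depends on the DNA-binding protein CTCF and on cohesin, while the C-type genes at the end of the alpha and gamma clusters are used more uniformly. The proteins form combinations on the cell surface that bind only matching combinations, through which branches of a neuron recognise and avoid each other.

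The clusters held almost no counts in this table. In these bulk brain samples, fewer cells that use an isoform and less of its RNA per cell cannot be told apart. All 59 rows together held 226, 250 and 248 counts in deficient mice 1, 2 and 3, against 237, 208 and 285 counts in wild-type mice 1, 2 and 3, from libraries of 18542590 to 24531408 counts. That is 0.00110% of all counts. Of the 59 rows, 28 had no count in any mouse, 31 had at least 1 and 17 had counts in all 6 mice. The highest count of any row in any mouse was 72. Only 4 rows passed the default edgeR filter on low counts and were tested, and 55 were not. The filter asks for enough counts in at least 3 libraries, so the 4 rows are the highest ones and do not stand for the family.

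The number of reads behind a symbol also depends on how reads over overlapping genes were treated, which the sources used here do not give. In GENCODE release M21, 47 rows could be placed by symbol. Symbols in capitals were read as the mouse gene where no mouse-style row exists. Every placed alpha and gamma gene overlaps 21 to 31 other genes, since each runs from its own variable exon to the shared constant exons. All 22 beta genes lie within the spans of 3 longer coding genes, Gm42416, Gm37013 and Gm37388, that reach from the alpha into the gamma cluster. Both other coding genes with a row between the clusters lie within these spans too. Slc25a2, a mitochondrial carrier gene, had 0 counts in every mouse, and Taf7, a subunit of the general transcription factor TFIID, had 7, 10 and 6 counts in deficient mice, against 9, 10 and 13 counts in wild-type mice. Just outside, Hdac3, a histone deacetylase gene, had 1884, 2142 and 1687 counts in deficient mice, against 1850, 1513 and 1933 counts in wild-type mice. The 17 coding genes with a row within 300 kb outside the clusters had a median of 601.5 counts per mouse. Over the genome, 778 coding genes inside the span of another coding gene had a median of 0.333 counts per mouse and 44.2% of them had none, against a median of 131.6 counts and 20.5% for 16336 coding genes that overlap no other. The part that this plays in the low protocadherin counts was not tested, so a count near 0 here says how few reads were assigned to a symbol and not how little of the gene the brain expresses.

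**Figure D1:**
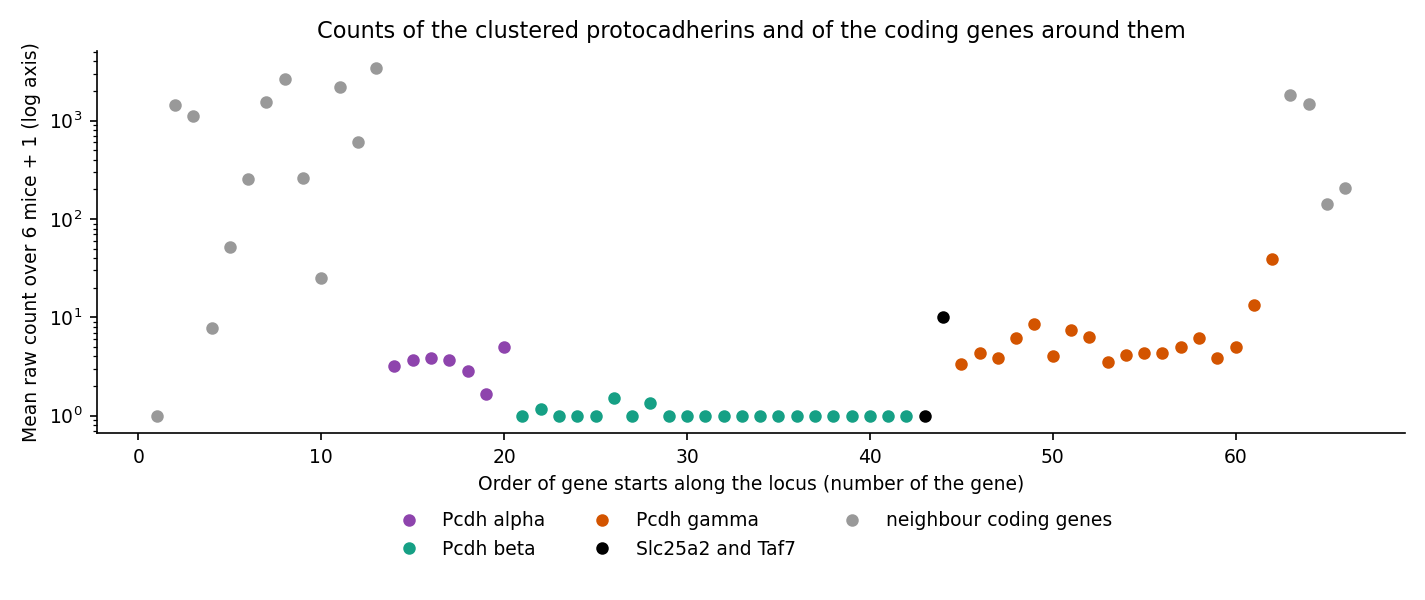
Mean raw count over the 6 mice plus 1, on a log axis, for the 47 placed protocadherin rows (alpha purple, beta green, gamma orange), for Slc25a2 and Taf7 (black) and for the 17 coding genes within 300 kb outside (grey), in the order of their starts along chromosome 18. Beta rows lie on the floor of the plot, and the gamma rows reach their highest values at the last 2 places, Pcdhgc4 and PCDHGC5.

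In the alpha cluster a single row carried most of the counts. PCDHA9_1, a symbol in capitals with a suffix, had 49, 46 and 67 counts in deficient mice 1, 2 and 3, against 53, 53 and 72 counts in wild-type mice 1, 2 and 3. Deficient mouse 3 stood above wild-type mice 1 and 2 in raw counts, so the groups overlapped. The row made up 72.5 ± 5.60% of alpha counts in deficient mice, against 79.2 ± 2.36% in wild-type mice (SD, n = 3 each). Its level was 2.44 ± 0.741 CPM in deficient mice, against 2.74 ± 0.348 CPM in wild-type mice (SD, n = 3 each), a log2 fold change of -0.18 (SE 0.21, adjusted p = 0.943 by edgeR). Which mouse gene this row counts cannot be read from the table. There are 10 rows with such a suffix, 6 of them alpha and 4 gamma, and PCDHA9_1 and PCDHGB6_1 are the only ones of the 10 with any count. Pcdha1, Pcdha2, Pcdha11, Pcdha12, the C-type genes Pcdhac1 and Pcdhac2, and Pcdhga3, Pcdhga8, Pcdhga11 and Pcdhgc3 had no row under their own symbols.

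The other alpha isoforms were each seen as a handful of reads. Pcdha9 was the next highest, with 2, 4 and 4 counts in deficient mice, against 5, 3 and 6 counts in wild-type mice. Pcdha5 had 5, 2 and 4 counts in deficient mice, against 3, 3 and 0 counts in wild-type mice. The groups overlapped for both. Pcdha8 was at the low end with 0, 0 and 1 counts in deficient mice, against 3, 0 and 0 counts in wild-type mice. The 8 alpha rows with a count besides PCDHA9_1 are Pcdha3 to Pcdha10, and they summed to 23, 19 and 18 counts in deficient mice, against 16, 12 and 19 counts in wild-type mice. In CPM that was 0.893 ± 0.128 in deficient mice, against 0.718 ± 0.0728 in wild-type mice (SD, n = 3 each), and deficient mouse 2 lay below wild-type mouse 3. With PCDHA9_1 included, the alpha rows summed to 3.34 ± 0.769 CPM in deficient mice, against 3.46 ± 0.376 CPM in wild-type mice (SD, n = 3 each), a log2 ratio of -0.05.

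In the beta cluster 19 of 22 rows had no count in any mouse. A count of 0 over the 3 libraries of a group allows up to 0.0447 CPM in deficient mice, against 0.0460 CPM in wild-type mice, a limit of 3 counts that covers counting error only. Pcdhb6 had 2, 1 and 0 counts in deficient mice, against none in wild-type mice, Pcdhb8 had 1, 0 and 1 counts in deficient mice, against none in wild-type mice, and Pcdhb2 had a single count, in wild-type mouse 3. The whole cluster came to 5 counts in deficient mice, against 1 in wild-type mice, too few for a fold change. Beta genes share much sequence. The closest other member of each was 70.1% to 100% identical over at least 200 bases (median 84.2%), and the highest value belongs to Pcdhb21 and Pcdhb22, whose gene models overlap. For alpha variable exons the closest member was 77.9% to 90.8% identical, and for gamma 65.7% to 80.7%.

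The gamma cluster held 497 counts in deficient mice, against 504 in wild-type mice, more than the other clusters together. Its summed level was 6.74, 7.47 and 7.93 CPM in deficient mice 1, 2 and 3, against 7.45, 7.74 and 8.07 CPM in wild-type mice 1, 2 and 3. The ranges overlapped, with a log2 ratio of the means of -0.07. Gamma rows of the A group made up 23.5 ± 2.61% of the cluster in deficient mice, against 20.5 ± 6.12% in wild-type mice (SD, n = 3 each). Rows of the B group made up 47.9 ± 3.27% in deficient mice, against 46.9 ± 4.93% in wild-type mice. Most of that share came from PCDHGB6_1, a suffixed row whose mouse gene is not known. PCDHGB6_1 made up 30.3 ± 1.49% of the cluster in deficient mice, against 32.2 ± 7.07% in wild-type mice. The 2 C-type rows made up 28.6 ± 2.53% in deficient mice, against 32.6 ± 3.82% in wild-type mice. Pcdhga3, Pcdhga8, Pcdhga11 and Pcdhgc3 have no row, so these are shares of the rows present and not of the whole cluster. The ranges of the genotypes overlapped for all 3 groups, and the shares were not tested.

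**Figure D2:**
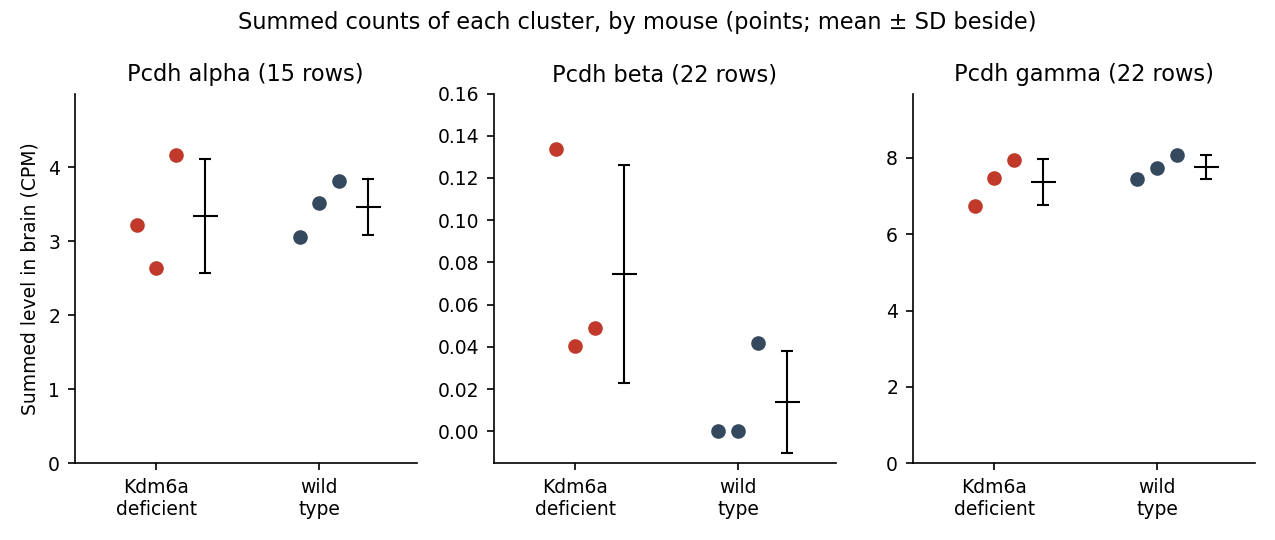
Summed level of the alpha, beta and gamma rows in each mouse in CPM (points), with Kdm6a deficient mice on the left and wild-type mice on the right of each panel, and the mean with its SD (n = 3) beside the points. The gamma rows sum to 6.74 to 7.93 CPM in deficient mice, against 7.45 to 8.07 CPM in wild-type mice, and the beta rows to at most 0.134 CPM in any mouse.

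Levels per length could be set for the 28 rows with a count and a place in the annotation. These leave out PCDHA9_1 and PCDHGB6_1, the rows with the highest CPM, which have no known length. Among the 28, the 2 C-type gamma rows had the highest averages over the 6 mice. The C-type gene Pcdhgc3 has no row and could not be ranked. PCDHGC5 was placed as the mouse gene by its symbol in capitals alone. The table does not settle this, since PCDHA4 and Pcdha4 have separate rows. So placed (chr18:37819513-37841873, plus strand), it is the last gene of the gamma cluster. It had 32, 37 and 37 counts in deficient mice, against 47, 32 and 46 counts in wild-type mice. Pcdhgc4, known in mice for keeping inhibitory interneurons alive during development, had 10, 12 and 14 counts in deficient mice, against 15, 13 and 11 counts in wild-type mice. Deficient mouse 3 stood within the wild-type range for both rows. Per kb of exon that no other member shares, PCDHGC5 averaged 0.317 CPM over the 6 mice (0.259 to 0.379) and Pcdhgc4 0.165 CPM (0.128 to 0.202), so these neighbours in the order did not overlap. The next was Pcdhga4 with 0.148 CPM per kb (0.0690 to 0.250), whose range covers that of Pcdhgc4. The order of these last 2 differed by genotype: Pcdhga4 had 0.200 CPM per kb in deficient mice, against 0.0957 in wild-type mice, and Pcdhgc4 had 0.155 CPM per kb in deficient mice, against 0.175 in wild-type mice. Pcdhga4 was thus above Pcdhgc4 in deficient mice and below it in wild-type mice, a difference that was not tested. The unshared length of Pcdhga4, 1.57 kb, was the shortest of the 28, while its first exon is 2608 bases long. Its place in this order therefore depends on which exon bases are counted. The 9 gamma A rows had 0.0327 to 0.148 CPM per kb (median 0.0566), the 7 placed gamma B rows with a count 0.0304 to 0.120 (median 0.0489), the 7 placed alpha rows 0.0122 to 0.0727 (median 0.0405) and the 3 beta rows with a count 0.00248 to 0.00576. These levels assume that only unshared exon bases gathered reads. Unshared here means free of other members, and genes that are not members overlap some of these bases. Pcdhga10 has 0 bases free of any other gene, and PCDHGC5 has 4606 of its 5508.

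None of the 4 tested rows differed between genotypes past an FDR of 5%. PCDHGC5 had 1.58 ± 0.204 CPM in deficient mice, against 1.91 ± 0.176 CPM in wild-type mice (SD, n = 3 each), a log2 fold change of -0.29 (SE 0.20, adjusted p = 0.901 by edgeR). For Pcdhgc4 it was -0.17 (SE 0.34, adjusted p = 0.975 by edgeR). PCDHGB6_1, the highest gamma row, had 48, 53 and 49 counts in deficient mice, against 52, 57 and 50 counts in wild-type mice, with a log2 fold change of -0.15 (SE 0.19, adjusted p = 0.949 by edgeR). Without wild-type mouse 2, which had its highest level, that value was 0.02. All 4 log2 fold changes were negative with a median of -0.18, against 0.00 over the 15030 genes tested. Over all genes 7 were called, or 0.0466%, a share at which 0 of 4 says nothing particular about these rows. At an unadjusted p under 0.05 the number was also 0 of 4, with 5.86% of all genes, and DESeq2 and limma-voom called none of them. The standard errors show the limit of depth here, since 36 and 39 counts per genotype, as for Pcdhgc4, leave a moderate change undetectable.

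**Figure D3:**
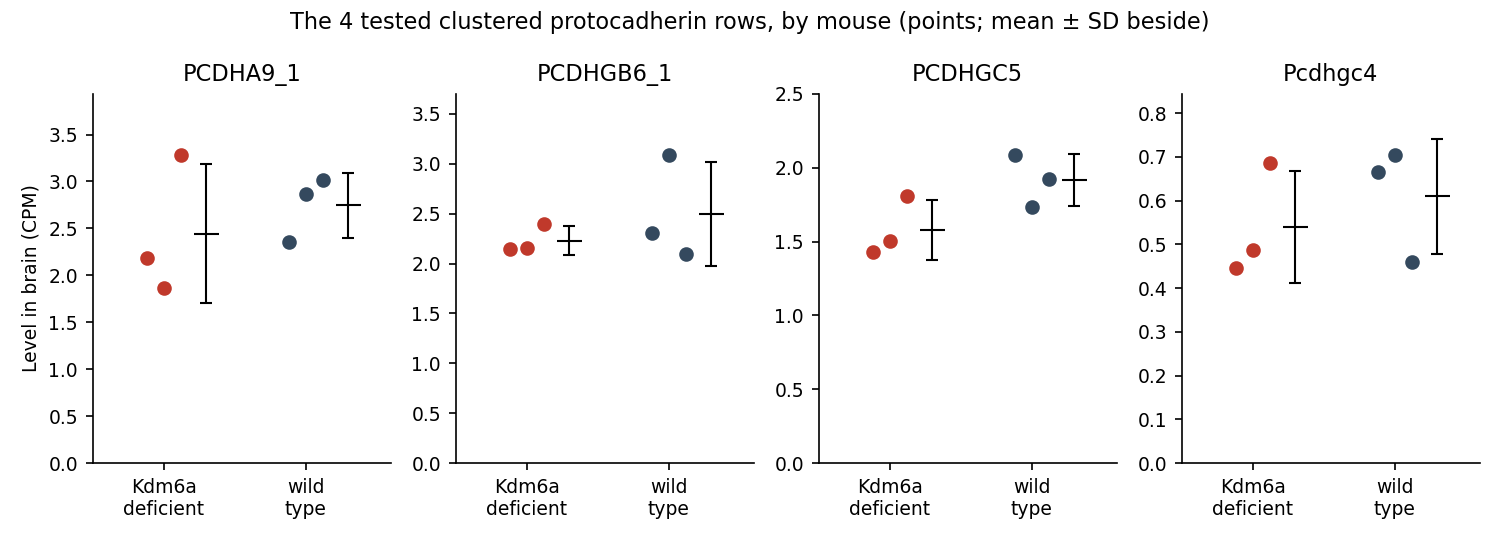
Level in CPM of the 4 tested rows in each mouse (points), Kdm6a deficient on the left and wild type on the right, with the mean and SD (n = 3) beside them and each axis starting at 0. The genotypes overlap in every panel; for PCDHA9_1 the deficient mice lie on both sides of the wild-type range of 2.35 to 3.01 CPM.

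The 27 rows with a count that were too low for the filter were fitted once with no filter. Of these, 15 had positive and 12 negative log2 fold changes, and none passed an FDR of 5%, for which the share over the 20593 rows with a count was 0.121%. The only one with an unadjusted p under 0.05 was Pcdhga5, against 5.43% of all such rows. It had 1, 2 and 1 counts in deficient mice, against 7, 2 and 5 counts in wild-type mice, with a log2 fold change of -1.77 (SE 0.80, adjusted p = 0.875 by edgeR). Pcdhga4 had 6, 7 and 8 counts in deficient mice, against 3, 2 and 5 counts in wild-type mice, with a log2 fold change of 0.99 (SE 0.58, adjusted p = 0.887 by edgeR). Pcdhga7 had 9, 6 and 7 counts in deficient mice, against 0, 2 and 8 counts in wild-type mice, so that wild-type mouse 3 stood within the deficient range and the other wild-type mice below it. Groups did not overlap in CPM for 4 of the 31 rows with a count, or 12.9%, against 10% of all rows with a count (2062 of 20593). Of the 4 tested rows all overlapped, where 11.2% of the genes tested did not. Pcdhga5 was lower in deficient mice, and Pcdhga4, PCDHGA12 and Pcdha7 were higher. For Pcdhga5 and Pcdha7 a mouse of each genotype had 2 counts, so that only library size parts the genotypes. PCDHGA12 had 4, 7 and 4 counts in deficient mice, against 3, 3 and 3 counts in wild-type mice, and Pcdha7 had 3, 3 and 2 counts in deficient mice, against 0, 1 and 2 counts in wild-type mice.

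**Figure D4:**
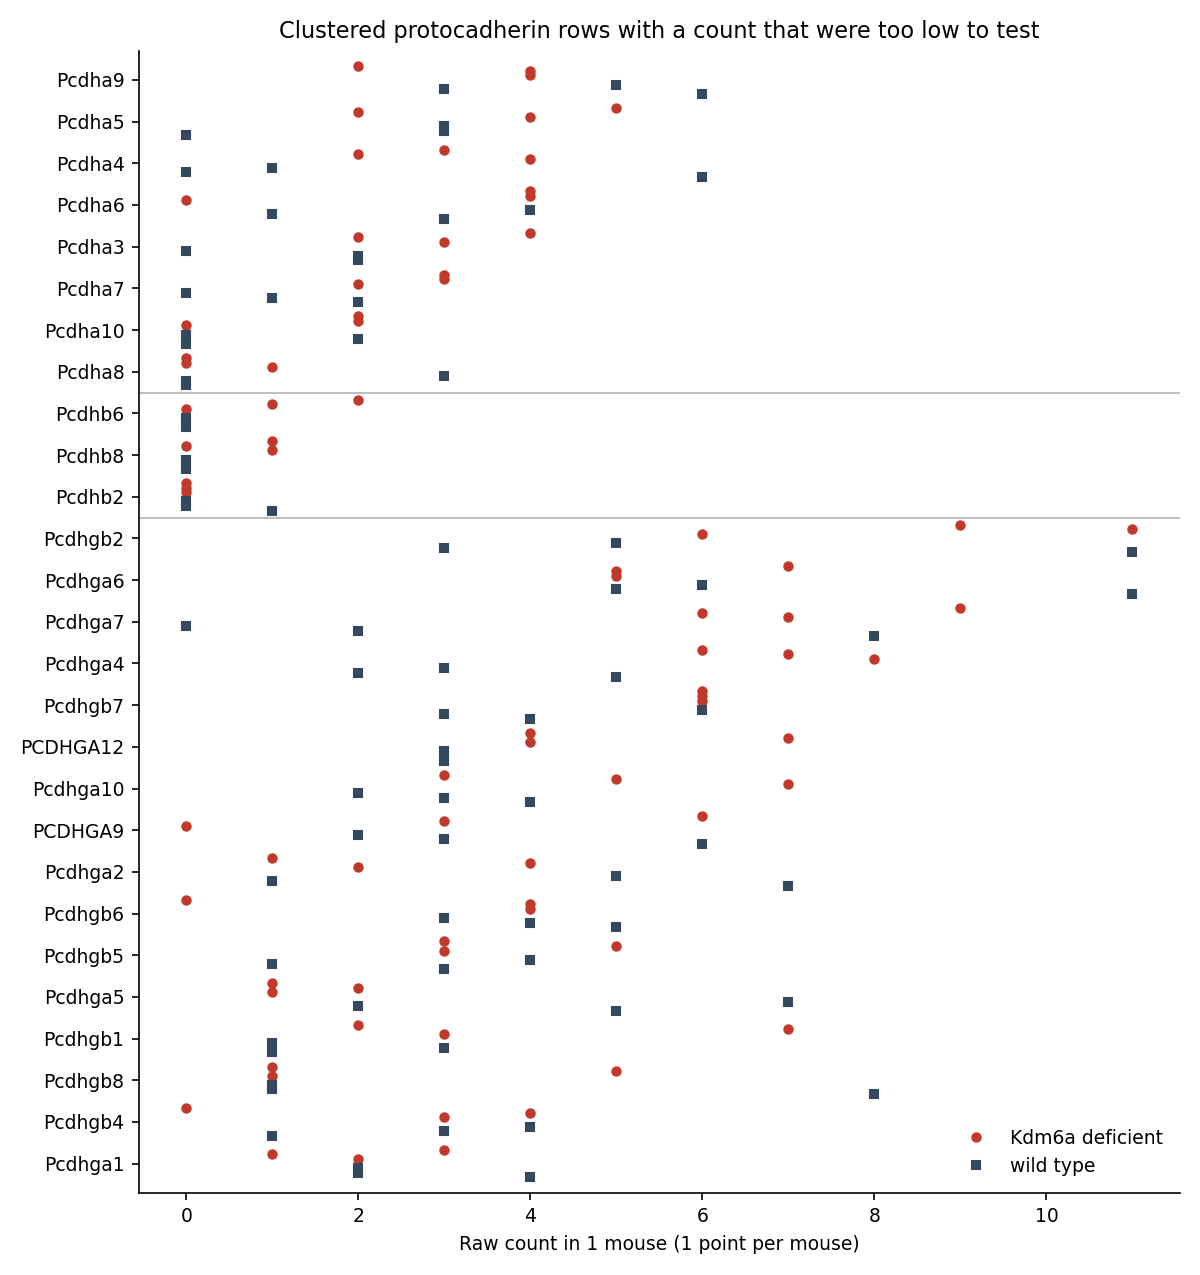
Raw counts of the 27 rows with a count that were not tested, 1 point per mouse, with Kdm6a deficient mice as circles above wild-type mice as squares in each row, and alpha, beta and gamma rows parted by lines. No point exceeds 11 counts, and the genotypes are interleaved in most rows.

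At these counts the spread between mice of a genotype is mostly counting error for the median row, and a biological spread of the usual size could not be seen. For each row, the squared deviations from the genotype mean were divided by those that counting error predicts. Over the 26 rows with at least 10 counts in all, the median ratio was 0.943, against 0.839 for pure counting error. The median was 1.42 over all rows with a count and 1.94 over all genes tested. The genes tested had a median level of 22.4 CPM, so these ratios were not compared at equal depth. PCDHA9_1 had the highest ratio of the 26 rows, 2.98, with deficient mouse 3 at 3.28 CPM and deficient mice 1 and 2 at 2.19 and 1.87 CPM. Pcdhgb8 followed at 2.93, with 1, 5 and 1 counts in deficient mice, against 1, 1 and 8 counts in wild-type mice. PCDHGC5 varied little, at 0.443.

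Protocadherin genes outside the clusters had more counts, except Pcdh12, and could be compared with smaller errors. These non-clustered genes, mostly of the delta family, are single genes that also mediate adhesion between neurons. All 12 listed were tested and none passed an FDR of 5%, against 0.0466% of all genes tested. Their median log2 fold change was -0.02, and 6 of the 12 were negative. Pcdh8, whose product is induced by activity and acts at synapses, had 26.6 ± 0.980 CPM in deficient mice, against 31.6 ± 1.69 CPM in wild-type mice (SD, n = 3 each), and a log2 fold change of -0.25 (SE 0.06, adjusted p = 0.435 by edgeR). Pcdh1 stood at -0.15 (SE 0.06, adjusted p = 0.771 by edgeR) and Pcdh11x at 0.12 (SE 0.06, adjusted p = 0.861 by edgeR). The genotypes did not overlap for these 3 of the 12 genes, against 11.2% of all genes tested. The summed level of the 12 was 1058 to 1080 CPM in deficient mice, against 1030 to 1147 CPM in wild-type mice. Pcdh12, an endothelial gene, was the lowest, with a log2 fold change of 0.08 (SE 0.38, adjusted p = 0.990 by edgeR) and with 0.660 ± 0.317 CPM in deficient mice, against 0.628 ± 0.148 CPM in wild-type mice (SD, n = 3 each).

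**Figure D5:**
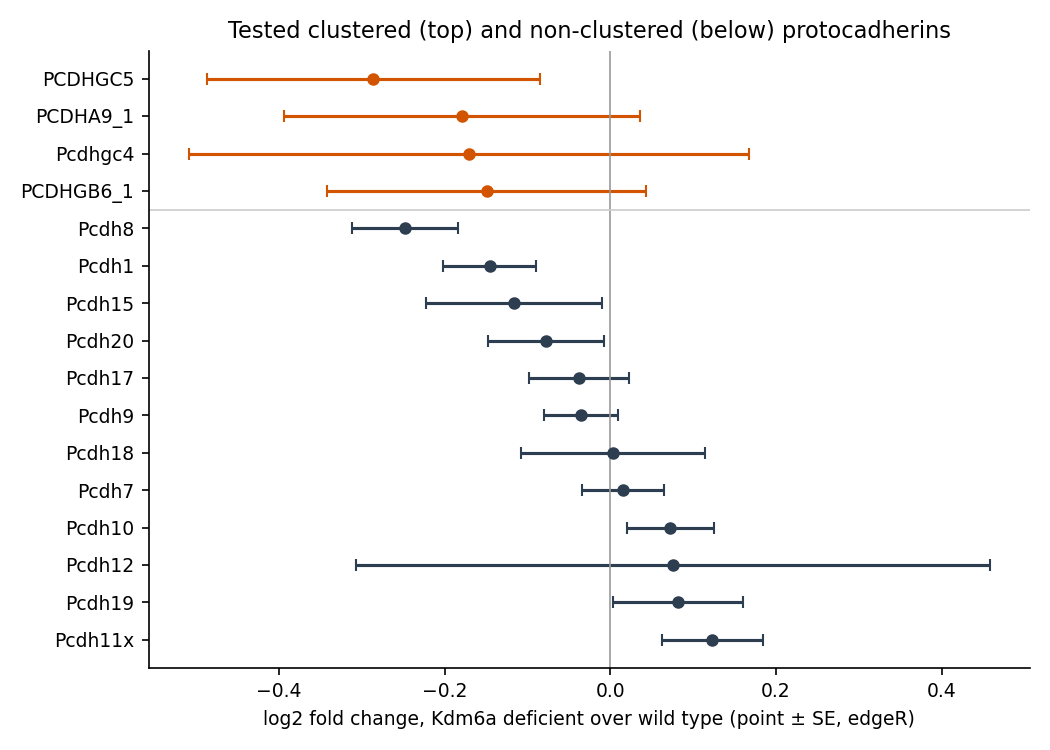
Log2 fold change, Kdm6a deficient over wild type, with its SE from edgeR, for the 4 tested clustered rows (orange, top) and the 12 non-clustered protocadherins (dark, below). The clustered rows lie between -0.29 and -0.15 with wide errors, and the non-clustered genes between -0.25 for Pcdh8 and 0.12 for Pcdh11x.

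Genes that act on the clusters or with their products did not differ past an FDR of 5% either. Over all genes tested 0.0466% were called, so 0 called in lists of this size says nothing particular about them. Among CTCF, cohesin and their loaders and unloaders, 10 of 11 listed genes were measured and 0 were called, with a median log2 fold change of 0.00. Ctcf stood at -0.02 (SE 0.05), the cohesin loader Nipbl at -0.09 (SE 0.06) and the cohesin regulator Pds5a at -0.09 (SE 0.06), with edgeR adjusted p of 0.975, 0.897 and 0.891. Of 14 genes of DNA methylation and repressive chromatin, 0 were called (median -0.02). The lowest was Dnmt3b, a DNA methyltransferase that in mice marks protocadherin promoters in the embryo, at -0.65 (SE 0.31, adjusted p = 0.856 by edgeR), with 0.493 ± 0.0815 CPM in deficient mice, against 0.775 ± 0.0928 CPM in wild-type mice (SD, n = 3 each). Dnmt3a stood at -0.07 (SE 0.06, adjusted p = 0.931 by edgeR) and Wiz, a partner of histone H3 lysine 9 methyltransferases, at 0.06 (SE 0.05, adjusted p = 0.920 by edgeR). Of 18 partners and signalling genes, 0 were called (median 0.00). By edgeR 2 of the 18 had an unadjusted p under 0.05, against 5.86% of all genes tested. The other lists in this paragraph had 0. Ptk2b, the kinase Pyk2 that gamma protocadherins inhibit, stood at -0.17 (SE 0.05, adjusted p = 0.603 by edgeR), with 352.9 ± 25.2 CPM in deficient mice, against 395.7 ± 9.79 CPM in wild-type mice (SD, n = 3 each). Cyfip2, of the WAVE complex that remodels actin, stood at -0.10 (SE 0.04, adjusted p = 0.771 by edgeR), and the protein kinase C gene Prkca at -0.11 (SE 0.05, adjusted p = 0.856 by edgeR). Of 5 type I cadherins 0 were called (median -0.01), with Cdh4 at -0.13 (SE 0.06), Cdh3 at -0.44 (SE 0.27) and Cdh5 at 0.10 (SE 0.07), and edgeR adjusted p of 0.856, 0.891 and 0.909.

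Neuron markers were abundant in all 6 mice, as the tissue label implies. The 8 listed summed to 7246 to 7689 CPM in deficient mice, against 7305 to 7473 CPM in wild-type mice. No member of the 9 marker lists passed an FDR of 5%, against 0.0466% of all genes tested. Markers of cerebellum, where Purkinje cells use protocadherins to space their dendrites, summed to 992.9 to 1214 CPM in deficient mice, against 934.2 to 1057 CPM in wild-type mice. Serotonin neuron markers, of cells whose axons need a C-type alpha protocadherin in mice, summed to 54.8 to 74.7 CPM in deficient mice, against 57.95 to 68.6 CPM in wild-type mice. Most of that sum came from Maob and Slc18a2, which are not specific to these cells. Tph2, which makes serotonin, had 4.02, 13.4 and 12.1 CPM in deficient mice 1, 2 and 3, against 5.99, 6.93 and 9.16 CPM in wild-type mice 1, 2 and 3. The serotonin transporter gene Slc6a4 had 2.28, 9.13 and 7.10 CPM in deficient mice 1, 2 and 3, against 3.42, 3.79 and 5.73 CPM in wild-type mice 1, 2 and 3. Deficient mouse 1 was the lowest of all mice for both, well below the other deficient mice. The part of regional makeup in any protocadherin value was not tested. Of the 8 cerebellum markers 4 had an unadjusted p under 0.05, against 5.86% of all genes tested, with a median log2 fold change of 0.13. The markers did not all go the same way, since 1 of the 8 had a negative log2 fold change, of -0.27. For Zic1 and Grm4, both expressed in cerebellar granule cells, the genotypes did not overlap, as for 11.2% of all genes tested. Both were higher in deficient mice, with log2 fold changes of 0.25 (SE 0.06, adjusted p = 0.435 by edgeR) and 0.22 (SE 0.06, adjusted p = 0.502 by edgeR). Both changes were smaller in size than the -0.27. The 5 choroid plexus markers had a median of -0.17, and summed to 649.3 to 1043 CPM in deficient mice, against 802.6 to 1211 CPM in wild-type mice. Olfactory bulb interneuron markers summed to 164.4 to 174.6 CPM in deficient mice, against 169.9 to 182.1 CPM in wild-type mice. Their median log2 fold change was 0.13, and 1 of the 5 was negative. Astrocyte markers summed to 1479 to 1505 CPM in deficient mice, against 1385 to 1513 CPM in wild-type mice, and oligodendrocyte markers to 6747 to 7586 CPM in deficient mice, against 7158 to 7945 CPM in wild-type mice. Microglia markers summed to 141.9 to 158.1 CPM in deficient mice, against 145.9 to 157.6 CPM in wild-type mice, and endothelial markers to 170.4 to 176.0 CPM in deficient mice, against 159.1 to 190.1 CPM in wild-type mice. The ranges of the sums overlapped in every list, and no listed marker was at 0 in all mice.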

How the data were processed

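Per the labels' protocols, RNA from 6 mouse brains was purified on Qiagen columns and sequenced from Illumina TruSeq libraries. The authors deposited raw counts per gene symbol, 1 column per mouse, and beside them, per the file headers, a DESeq2 comparison with a mean normalized count (signal), a log2 fold change and its standard error, a test score, a p-value and an adjusted p-value. The submitters' processing notes name GRCm38 and DESeq2. For aligner, counter, annotation and strandedness: not given in the sources used here. None of the 59 members has an adjusted p-value in the authors' deposited table (0 listed). The authors' DESeq2 p-value is given for 31 members, none under 0.05, and the smallest is 0.144, for Pcdhga5. The highest mean normalized count of a member is 56.9, against a lowest of 83.9 among rows with an adjusted p-value.

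Counts of all genes were fitted with edgeR 4.0.16 (R 4.3.3): TMM scaling, filterByExpr, robust quasi-likelihood F test, two-sided, Benjamini-Hochberg over 15030 genes, threshold 0.05. The SE is the fold change over the square root of F. The code was tested on simulated data. DESeq2 1.42.0, limma-voom (limma 3.58.1), RLE factors, other filters, each mouse left out in turn with the genes tested kept fixed, and the mouse number as a block were alternatives. Groups come from the titles. The labels name no separate litters or days, so a litter or day that differed by genotype could not be told apart from it. The p-values refer to the spread between these mice, which for the median member row was near counting error. For PCDHA9_1 it was larger, with a ratio to counting error of 2.98. Positions, overlaps and sequence identity (blastn, at least 200 bases) come from GENCODE M21 on GRCm38. Members, gene lists and the rule for named genes (the highest and smallest-p members, up to 3 of each related list) were chosen with earlier results of these data known.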

Additional observations from a re-analysis of the deposited data

How the results depend on the processing

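No clustered protocadherin was called with DESeq2, limma-voom, RLE scaling, an unfiltered table, a minimum mean of 1 CPM or the replicate block. None was called at a threshold of 0.10 or in any of 6 fits without 1 mouse either. Counting only rows with mouse-style symbols, or leaving out suffixed rows, was chosen after seeing the data. Both only drop rows from a count of 0, so their result of 0 was fixed beforehand. The minimum of 1 CPM left out Pcdhgc4. The number of all genes called was 7, and became 25 with no filter, 20 with DESeq2 and 15 with the replicate block; leaving out 1 mouse gave 6 to 16. The labels do not say whether same-numbered mice were paired. Their deviations correlated at -0.00, 0.08 and 0.05, and 2 of the 3 deficient mice correlated best with their own number. With 3 mice per genotype these values cannot settle it.

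Of the 20 genes refitted under the alternatives, PCDHGB6_1 turned, to a log2 fold change of 0.0165 without wild-type mouse 2, with a lowest value of -0.265 without wild-type mouse 3. Pcdhga5 and Pcdhga4 were fitted with no filter only, and not under the other alternatives. Leaving out 1 mouse moved PCDHA9_1 between -0.44 and -0.01, PCDHGC5 between -0.39 and -0.22 and Pcdhgc4 between -0.36 and -0.06. The alpha sum became 0.31 on the log2 scale with mouse-style symbols only, where PCDHA9_1 is left out. As a mean of log2 CPM over rows the alpha value became 0.178 and the gamma value 0.0223. The gamma sum became 0.0825 with mouse-style symbols only. Without 1 mouse the alpha ratio ran from -0.24 to 0.09 and the gamma ratio from -0.13 to -0.01. RLE factors and unscaled totals left both within the spread between mice. Differences in share ran from -9.74 to -4.36 points for PCDHA9_1, -5.13 to 1.85 for PCDHGB6_1, -4.53 to -1.73 for PCDHGC5 and -1.75 to -0.05 for Pcdhgc4. Depth limits every member: with 1 to 340 counts over 6 mice, only large changes could have been seen.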
